A study of Mus musculus with 36 samples.

Results

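Genes of interfollicular epidermal differentiation (9 of 20181 genes in the Lrig1 table and 9 of 22587 in the Lgr5 table) were followed in the labelled progeny of 2 hair follicle stem cell populations through a first and a second tail wound. The 9 genes are Krt1, Krt10, Krtdap, Sbsn, Dmkn, Ivl, Lor, Flg and Calm4. Each had 1 row in both count tables, and all 9 passed the filter on low counts in both populations. Mice carried EGFP-ires-CreERT2 at the Lrig1 or the Lgr5 locus together with the Rosa26-fl/STOP/fl-tdTomato reporter, so that the promoter of each locus decided which follicle cells, and hence which progeny, became tdTomato positive. Every mouse, unwounded ones included, received 1 topical dose of hydroxytamoxifen on tail skin at 6 to 8 weeks of age, 1 week before the first wound or the 0W sampling. A full-thickness wound of 2 mm was then made at 7 to 9 weeks of age. The groups were unwounded labelled skin (0W), 1, 2, 4 and 8 weeks after the first wound (1W, 2W, 4W, 8W), and 1 week after a second wound placed at 8 weeks (9W). Later groups were also older and further from labelling than 0W, and no unwounded group was sampled after 0W. Effects of age and of time since labelling thus cannot be told apart from those of the wounds. There were 3 libraries per population and time point, 36 in all, each a full-length mini-bulk library of a small pool of sorted tdTomato-positive epidermal cells. The sorted zone held the wound bed and follicles at a distance from it, and no gate separated basal from differentiated cells. In such bulk samples, fewer differentiated cells and less RNA per cell cannot be told apart, and cells of the wound bed and of distant follicles cannot be told apart either.

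In interfollicular epidermis, basal keratinocytes that leave the basement membrane switch from KRT5 and KRT14 to the suprabasal keratin pair KRT1 and KRT10, which assemble together into the filaments of the spinous layer. Keratinocyte differentiation-associated protein (Krtdap), suprabasin (Sbsn) and dermokine (Dmkn) are secreted or soluble products of the suprabasal layers, encoded side by side. Calm4 is a calmodulin-like calcium-binding protein of differentiating keratinocytes (also called Scarf), while involucrin (Ivl), loricrin (Lor) and filaggrin (Flg) belong to the late programme that builds the cornified envelope and aggregates keratin filaments. Lrig1 marks stem cells of the upper follicle and Lgr5 those of the lower bulge, whose progeny can enter interfollicular epidermis after wounding.

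In the GRCm38 annotation, Sbsn (chromosome 7, 30751471 to 30756134), Dmkn (chromosome 7, 30763756 to 30781063) and Krtdap (chromosome 7, 30787896 to 30791097) are neighbours on the plus strand. Krt1 lies on chromosome 15 (101845426 to 101850794, minus strand) and Krt10 on chromosome 11 (99385254 to 99389364, minus strand), that is, in different keratin gene clusters. Lor (92080271 to 92083142, minus strand), Ivl (92570902 to 92573735, minus strand) and Flg (93273523 to 93293686, plus strand) are on chromosome 3, and Calm4 (3837757 to 3838673, plus strand) is on chromosome 13. All 9 are protein-coding. Exons of Sbsn share 279 bases with Tmem147os and exons of Krt10 share 146 bases with Gm11940. The counting options that the paper lists name no strand setting. The Flg locus carries the annotation tag for a reference genome error.

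Promoter windows, the 250 bases before the annotated start, were taken from RefSeq (assembly GRCm38.p6) for 8 of the 9 genes. Krt1 was not matched. A TGANTCA site of the AP-1 type, read on both strands, was present in 6 of the 8 windows (Krtdap, Sbsn, Dmkn, Ivl, Lor, Flg) against 6.7% of 32851 windows of the same length. A TATAAA stretch was present in 5 of the 8 windows (Krt10, Krtdap, Ivl, Lor, Flg) against 12.4% of all windows. The 3 neighbours on chromosome 7 are shown because their levels parted in the results that follow. Capitals mark TGANTCA and TATAAA. The windows are chr7:30751221-30751470 for Sbsn, chr7:30763506-30763755 for Dmkn and chr7:30787655-30787904 for Krtdap, all on the plus strand, and Dmkn has 3 starts in the table, of which the 5′-most is shown.
Sbsn: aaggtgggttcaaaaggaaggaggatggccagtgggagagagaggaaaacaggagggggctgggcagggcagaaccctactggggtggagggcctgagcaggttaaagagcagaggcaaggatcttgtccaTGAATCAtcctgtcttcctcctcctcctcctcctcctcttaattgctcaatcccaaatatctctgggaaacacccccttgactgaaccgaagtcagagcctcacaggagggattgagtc
Dmkn: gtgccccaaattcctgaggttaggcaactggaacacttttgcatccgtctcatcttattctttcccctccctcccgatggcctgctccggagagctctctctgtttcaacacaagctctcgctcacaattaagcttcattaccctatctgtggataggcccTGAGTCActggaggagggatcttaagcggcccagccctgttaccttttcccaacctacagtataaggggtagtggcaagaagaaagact
Krtdap: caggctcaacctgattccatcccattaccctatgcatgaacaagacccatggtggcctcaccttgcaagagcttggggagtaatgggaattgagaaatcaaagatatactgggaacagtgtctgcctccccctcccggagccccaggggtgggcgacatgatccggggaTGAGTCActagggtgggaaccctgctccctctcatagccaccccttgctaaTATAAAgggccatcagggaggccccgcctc
The Sbsn and Dmkn windows held an AP-1-type site (TGAATCA and TGAGTCA) and no TATAAA, while the Krtdap window held both, without overlap. The window of Calm4 (chr13:3837507-3837756) is shown beside that of its neighbour Calm5 (chr13:3853923-3854172), both on the plus strand, because the genes moved alike below. Neither held a motif searched for.
Calm4: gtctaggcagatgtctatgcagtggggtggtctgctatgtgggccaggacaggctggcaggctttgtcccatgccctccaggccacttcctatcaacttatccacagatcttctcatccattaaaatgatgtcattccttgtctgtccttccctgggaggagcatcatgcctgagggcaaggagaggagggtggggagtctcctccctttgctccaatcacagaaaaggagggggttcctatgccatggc
Calm5: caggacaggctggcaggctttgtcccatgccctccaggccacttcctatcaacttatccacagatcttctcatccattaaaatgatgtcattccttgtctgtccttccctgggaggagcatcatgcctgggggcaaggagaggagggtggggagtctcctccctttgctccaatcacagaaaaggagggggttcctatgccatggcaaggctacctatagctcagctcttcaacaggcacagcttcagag
Shifted by 44 bases, the Calm4 and Calm5 windows were identical at 205 of 206 aligned bases. Within their transcripts, 4.7% of the 50-base stretches of Calm4 also occurred in Calm5 and 7.3% of those of Calm5 in Calm4. Reads lying wholly within such stretches cannot be told apart by sequence, and how they were counted was not tested. A match of letters is a description of the window and does not show that a factor binds there.

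Total counts ranged from 765252 to 3365666 per Lrig1 library and from 1297798 to 6960537 per Lgr5 library. Levels are CPM (each library's counts set to a common total) scaled within each population by TMM factors, and differences are log2 fold changes ± SE from edgeR's quasi-likelihood fit with Benjamini-Hochberg adjusted p over all genes tested (14306 in Lrig1, 18025 in Lgr5, 13980 in the joint fit). A gene was called at adjusted p under 0.05 and, against 0W and in the time course, a log2 fold change beyond 1. Statements that libraries of 2 groups did not overlap are descriptions. An exact permutation test of 3 against 3 libraries gives no p below 0.1, and the share of all genes without overlap was not computed. The pseudogene Gm12415 took 12.04 to 52.1% of counts in each Lgr5 library and at most 0.000212% in each Lrig1 library. Mouse line and count table split the libraries in the same way as the population. In comparisons between populations, their effects cannot be told apart from that of the population. The share of mitochondrially encoded transcripts was 12.8% ± 1.77 (SD, n = 3) at 8W in Lrig1 libraries against 4.58% ± 1.24 at 0W. The 9 genes together took 6969 to 41401 CPM in the Lrig1 libraries and 1072 to 10880 CPM in the Lgr5 libraries. Markers of other cells were low: the fibroblast list (5 genes, 4 of them in the Lrig1 table) summed to 0.536 to 87.7 CPM in Lrig1 and 54.5 to 374 CPM in Lgr5 libraries, and the immune list (6 genes, 3 and 2 of them in the tables) to at most 28.6 and 33.3 CPM. Sorted cells were keratinocytes by their markers, with the 8-gene basal list at 10086 to 33208 CPM in every library. The study counts mice as its replicates, but the labels name no animal for a library, and the p-values measure the spread between these libraries.

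**Figure D1:**
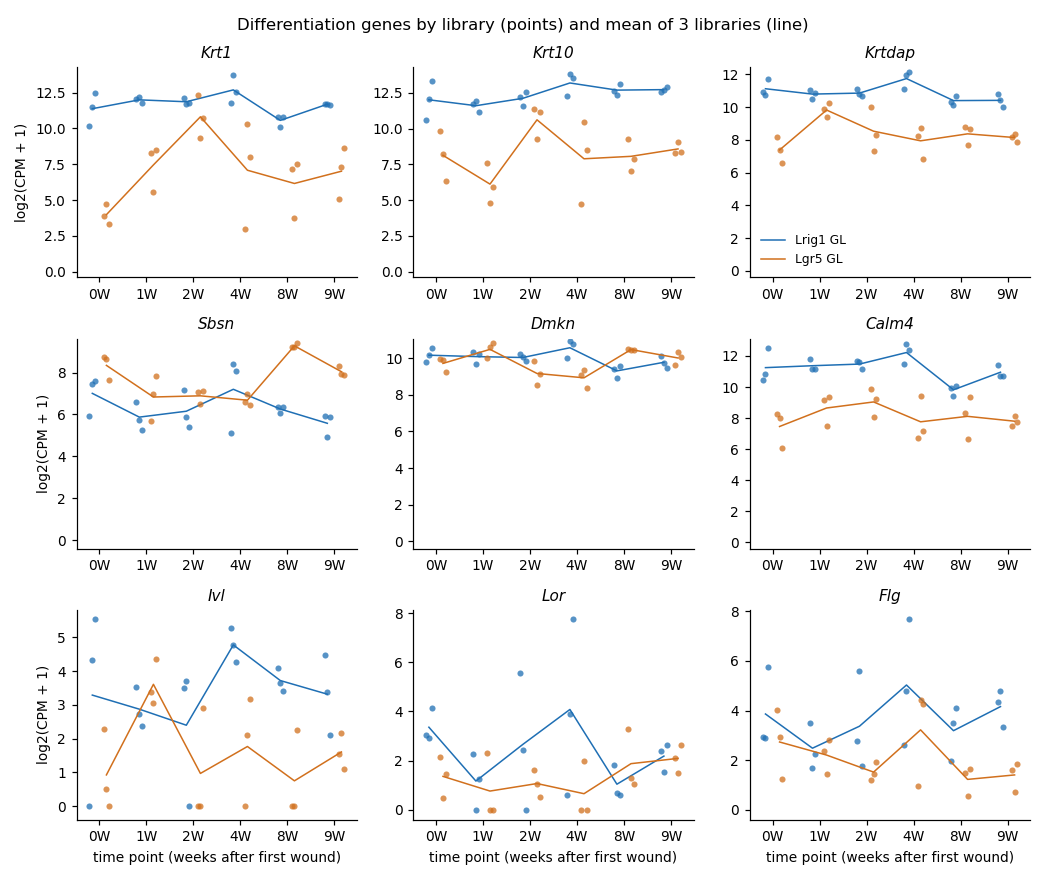
Levels of the 9 genes as log2(CPM + 1) in 18 Lrig1 (blue) and 18 Lgr5 (orange) libraries by time point; points are libraries and lines join the means of 3. The populations were scaled separately, so heights compare time points within a colour. Krt1 in Lrig1 libraries had its lowest mean at 8W (1095 to 1797 CPM) and Sbsn in Lgr5 libraries was highest at 8W (588 to 672 CPM).

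Before wounding, levels of the genes of interfollicular differentiation were compared between the labelled populations. No gate separated interfollicular cells from follicle cells, so these levels cannot tell differentiated interfollicular cells from differentiating follicle cells. The paper states that Lrig1-positive stem cells maintain sebocytes, sebaceous ducts and the infundibulum. How far each population already held interfollicular cells was not tested. On the joint scale, Krt1, Krtdap, Calm4 and Krt10 were higher in Lrig1 than in Lgr5 GL cells (genetically labelled cells and their progeny), whereas Dmkn was level and Sbsn leaned the other way. Krt1 stood at 1210, 3028 and 6198 CPM in the 3 Lrig1 libraries and at 19.0, 34.1 and 12.8 CPM in the 3 Lgr5 libraries. The lowest Lrig1 library was above the highest Lgr5 library for Krt1, and the log2 difference was 7.29 ± 1.26 (adjusted p = 0.00137). This call was missed with limma-voom and quality weights (7.31, adjusted p = 0.0545). Krtdap was at 2090, 1776 and 3634 CPM in Lrig1 and at 394, 225 and 133 CPM in Lgr5 libraries, a log2 difference of 3.32 ± 0.53 (adjusted p = 0.000722). Calm4 was at 1486, 1919 and 6151 CPM against 419, 344 and 96.1 CPM, a log2 difference of 3.47 ± 0.70 (adjusted p = 0.00507). Neither gene overlapped between the populations. Krt10 was at 1667, 4638 and 11252 CPM against 1244, 399 and 114 CPM, a log2 difference of 3.32 ± 0.92 that passed more narrowly (adjusted p = 0.0422) and was lost without any one of 6 of the 36 libraries (adjusted p up to 0.155) and with no filter on low counts (0.0521).

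Dmkn did not separate the populations at 0W: it was at 951, 1217 and 1592 CPM in Lrig1 and at 1334, 1313 and 880.4 CPM in Lgr5 libraries, and the log2 difference was 0.09 ± 0.31 (adjusted p = 0.921). Sbsn was at 64.5, 186 and 209 CPM in Lrig1 and at 568, 540.4 and 284 CPM in Lgr5 libraries. All Lgr5 libraries were above all Lrig1 libraries for Sbsn, yet the log2 difference of -1.60 ± 0.57 did not pass (adjusted p = 0.126). The late genes were scarce in both populations. Ivl, Lor and Flg reached at most 48.6, 17.8 and 56.2 CPM in Lrig1 and 5.21, 4.59 and 20.5 CPM in Lgr5 libraries, and none passed. In all, 4 of the 9 genes were called, all higher in Lrig1, where 3.12% of all genes were called in either direction. DESeq2 called these 4 and also Sbsn, the latter lower in Lrig1, beside 6.73% of all genes. Per kilobase of exon, the highest members in Lrig1 cells were Krtdap (3682 ± 1465 CPM per kb, SD, n = 3) and Calm4 (3474 ± 2811), and in Lgr5 cells Dmkn (536 ± 117) and Krtdap (369 ± 195). Other genes of the programme went with the first group: Calm5, the neighbour of Calm4, was higher in Lrig1 by 4.43 ± 0.77 (adjusted p = 0.00137), the kallikrein protease gene Klk8 by 3.32 ± 0.86 (0.0289) and the transglutaminase gene Tgm3 by 4.84 ± 1.05 (0.00877). Of 13 genes for envelope assembly, Klk8 and Tgm3 were the 2 called, and of 5 tested among 21 listed genes of the granular layer none was. The bulge keratin gene Krt15 was lower in Lrig1 cells (-1.85 ± 0.49, adjusted p = 0.0321). The sebocyte markers Scd1 and Mgst1 were called higher in Lrig1 cells as well, and the sebocyte list (3 of 5 genes in each table) summed to 489 to 2376 CPM in Lrig1 against 70.8 to 113 CPM in Lgr5 libraries on the separate scales. The fibroblast gene Col1a2 was lower in Lrig1 cells (-7.97 ± 1.57, adjusted p = 0.00405). The lower follicle and bulge list, with Postn left out of its 6 genes, was at 5155 to 9106 CPM in Lrig1 and at 15267 to 21318 CPM in Lgr5 libraries, also on the separate scales. The upper follicle list (6 genes) summed to 6609 to 10461 CPM in Lrig1 and to 285 to 3883 CPM in Lgr5 libraries on the separate scales. Its member Defb6 was called higher in Lrig1 cells (3.87 ± 1.08, adjusted p = 0.0427). The part of all these cells in the differences was not tested.

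**Figure D2:**
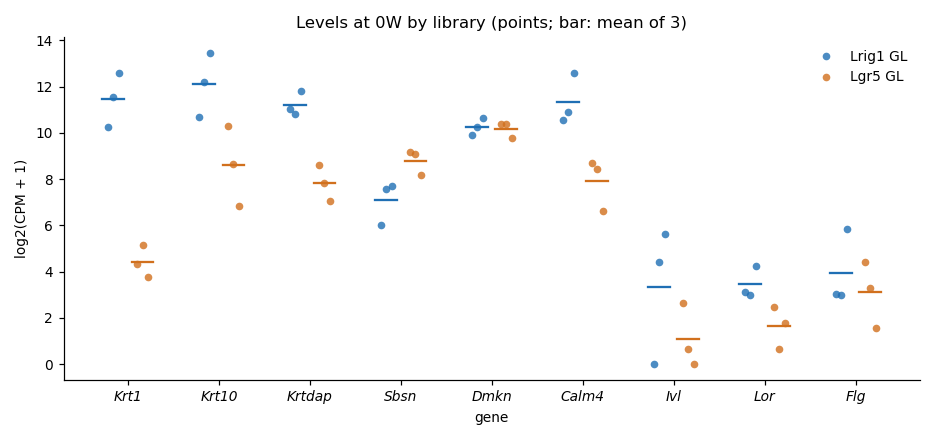
Levels of the 9 genes at 0W as log2(CPM + 1) on the joint scale, in 3 Lrig1 (blue) and 3 Lgr5 (orange) libraries; bars are means. The populations did not overlap for Krt1, Krt10, Krtdap and Calm4 (higher in Lrig1), Lor (higher in Lrig1, not called) and Sbsn (higher in Lgr5, not called), and Dmkn overlapped. The share of all genes without overlap was not computed.

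In Lrig1 GL cells, none of the 9 genes had a called change against 0W at any time. The called changes lay between 4W and 8W, when Calm4, Krt1, Krtdap and Dmkn fell. No gene was called at 1W (0.217% of all genes called), 2W (0%), 4W (0.0419%), 8W (2.82%) or 9W (1.23%) against 0W, nor over the time course (1.63%). At an unadjusted p under 0.05, the numbers of the 9 were 0, 0, 1, 4 and 2 at 1W, 2W, 4W, 8W and 9W and 6 over the time course. The shares of all genes at that level were 11%, 10.5%, 8.37%, 22.9% and 18.5%, and 20.5% over the time course. DESeq2 called Calm4 at 8W against 0W, where it called 11% of all genes, and Lor, Calm4 and Krt1 over the time course, where it called 13.1%. The spread at 0W was wide: Krt1 was at 1127, 2862 and 5794 CPM and Krt10 at 1552, 4384 and 10519 CPM.

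Between 4W and 8W, Calm4 went from 2877, 7059.7 and 5381 CPM to 994, 693 and 1081 CPM. All 8W libraries were below all 4W libraries, and the log2 fold change was -2.47 ± 0.46 (adjusted p = 0.0157). Krt1, the type II keratin of the suprabasal pair, went from 3570.4, 13419 and 5961 CPM to 1797, 1095 and 1737 CPM (-2.31 ± 0.49, adjusted p = 0.0210). Krtdap went from 2208, 4041 and 4523 CPM to 1298, 1139.5 and 1663 CPM (-1.39 ± 0.32, adjusted p = 0.0289). Dmkn went from 1032, 1970.2 and 1737 CPM to 691, 475 and 775 CPM (-1.29 ± 0.30, adjusted p = 0.0289). None of these 4 genes overlapped between 4W and 8W, which is a description without the share of all genes beside it. Krt10, the type I partner of Krt1, was at 4876, 14503 and 11674 CPM at 4W and at 6249, 5289 and 8850.5 CPM at 8W, and its difference of -0.61 ± 0.50 did not pass (adjusted p = 0.497). Sbsn was at 33.7, 341 and 268 CPM at 4W and at 80.5, 66.0 and 81.5 CPM at 8W (-1.49 ± 0.67, adjusted p = 0.198). Thus 4 of the 9 genes fell, against 3.72% of all genes called in either direction, and all 9 had a negative fold change with a median of -1.49.

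The 8W decrease rested on the 3 libraries per group. Leaving out 4W replicate b, 4W replicate c, 8W replicate a or 8W replicate b left 0 of the 9 genes called, with 0, 0, 0 and 40 genes called over the whole table, and leaving out 8W replicate c left only Calm4. The fold changes kept their sign in all 18 fits that left out 1 library (Calm4 -2.75 to -2.16, Krt1 -2.65 to -1.62, Krtdap -1.64 to -1.21, Dmkn -1.51 to -1.10). With a per-library trend on GC content removed, only Calm4 was called (Krt1 adjusted p = 0.0508, Krtdap 0.0607, Dmkn 0.152), and with 5 surrogate variables none was (Calm4 -1.28, Krt1 -1.34, Krtdap -0.40, Dmkn -0.54). The mitochondrial share was 5.80% ± 2.55 (SD, n = 3) at 4W and 12.8% ± 1.77 at 8W, so it rose while these genes fell. Its part in the decrease was not tested. With mitochondrial genes removed before scaling, which changes the scaling but not the cells, the count of called genes remained 4.

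From 4W to 8W, 1 of 5 calmodulin family genes, 1 of 13 envelope assembly genes and 1 of 9 tested granular layer genes also fell, beside the 3.72% of all genes called. These were Calm5, Klk8 and Cnfn. Calm5 went from 151, 575 and 420.4 CPM to 81.2, 62.3 and 63.3 CPM (-2.47 ± 0.45, adjusted p = 0.0157). Klk8 went from 149, 350 and 128 CPM to 6.92, 6.11 and 27.3 CPM (-3.96 ± 0.80, adjusted p = 0.0195). Cornifelin (Cnfn), an envelope component, went from 9.18, 110 and 131 CPM to 2.18, 0 and 0 CPM (adjusted p = 0.0289). Calm5 and Klk8 were also below 0W at 8W (-2.19 ± 0.44 and -3.80 ± 0.80, both adjusted p = 0.0238), where Calm4 narrowly missed (-1.69 ± 0.45, adjusted p = 0.0509). None of 9 tested suprabasal keratin and desmosome genes was called between 4W and 8W. Of 13 tested transcription factors of differentiation, Maf rose, from 409, 295 and 181 CPM to 954, 553 and 1305 CPM (1.67 ± 0.45, adjusted p = 0.0486). Among 8 basal genes Trp63, the master factor of stratified epithelium, rose from 390.1, 332 and 234 CPM to 833, 801 and 839 CPM (1.37 ± 0.33, adjusted p = 0.0302), and the summed basal list was at 19946 to 26198 CPM at 4W and at 12415 to 18687 CPM at 8W. The follicle marker Postn, used in the study for the infundibulum, rose from 852, 754 and 1264 CPM to 3872, 2257 and 2115 CPM (1.52 ± 0.39, adjusted p = 0.0376). All 8W libraries were above all 4W libraries for Postn, and the part of such follicle cells in the decrease of the 9 genes was not tested.

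**Figure D3:**
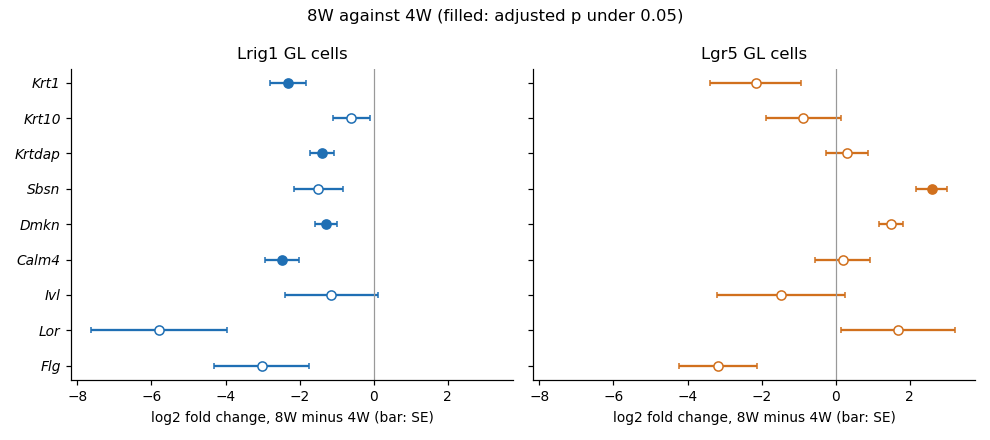
Log2 fold changes from 4W to 8W with their SE, in Lrig1 (left) and Lgr5 (right) GL cells; filled points have an adjusted p under 0.05. Calm4, Krt1, Krtdap and Dmkn fell in Lrig1 cells, and Sbsn rose in Lgr5 cells.

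After the second wound, no change of the 9 genes was called in Lrig1 cells. Krt1 was at 3361, 3364 and 3166 CPM at 9W, above all 8W libraries, with a log2 difference of 1.10 ± 0.47 from 8W (adjusted p = 0.858). Calm4 was at 2799, 1647 and 1697 CPM, also above all 8W libraries (1.15 ± 0.45, adjusted p = 0.850). In 9W against 8W 0.00699% of all genes were called. Against the first wound at the same interval, Krt10 at 9W (6087, 6821 and 7554 CPM) lay above all 1W libraries (3376, 3924 and 2289.8 CPM), with a log2 difference of 1.09 ± 0.50 (adjusted p = 0.545). Krt1 at 9W lay below all 1W libraries (4309.6, 4569 and 3424 CPM; -0.31 ± 0.46, adjusted p = 0.877). No gene in the table was called in 9W against 1W (0%) or in 4W against 1W (0%). At an unadjusted p under 0.05, the numbers of the 9 were 1 in 9W against 1W, 2 in 9W against 8W and 5 in 4W against 1W, where 8.87%, 5.72% and 8.46% of all genes were at that level. Outside the 9 genes, the suprabasal keratin gene Krt80 fell at 9W against 0W (-2.17 ± 0.42, adjusted p = 0.0229), where 1.23% of all genes were called. Of the basal and bulge lists, Krt15 (-2.76 ± 0.61, adjusted p = 0.0360) and Sox9 (-1.90 ± 0.42, 0.0362) also fell there, and Itgb1 rose (1.69 ± 0.39, 0.0398).

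The late genes were low in Lrig1 cells, and single libraries held most of their counts. A count of 3 corresponds to 0.891 to 3.92 CPM in these libraries, counting error only. Lor was at 0.510, 13.9 and 214 CPM at 4W, where replicate c alone held 269 counts, and at 0.536 to 2.55 CPM at 8W. Flg was at 5.10, 26.4 and 208 CPM at 4W, with 262 counts in the same replicate c, and at 2.91 to 16.1 CPM at 8W. Ivl ranged from 0 to 45.5 CPM over all 18 libraries. With edgeR's quasi-likelihood test none of the 3 was called in any Lrig1 comparison, whereas DESeq2 called Lor in 4W against 1W, 8W against 4W and the time course, in which it called 0.832%, 11.4% and 13.1% of all genes. In Lgr5 cells Ivl, Lor and Flg reached at most 19.7, 8.83 and 20.5 CPM. None was called there by edgeR's quasi-likelihood test, whereas DESeq2 called Flg in 8W against 4W (1.8% of all genes) and over the time course (9.34%).

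In Lgr5 GL cells, Krt1 was low before wounding and varied widely between libraries afterwards, and Sbsn was low at 2W and 4W and highest at 8W. Over the time course edgeR's quasi-likelihood test called Sbsn alone of the 9 genes, DESeq2 called 4 (Flg, Sbsn, Krtdap and Krt1) and the likelihood ratio test called 5 (those 4 and Krt10). Krt1 was at 14.1, 25.3 and 8.96 CPM at 0W, at 315, 47.0 and 353 CPM at 1W and at 5243, 649 and 1689.8 CPM at 2W. All 1W and all 2W libraries were above all 0W libraries. The log2 differences of 3.87 ± 1.32 at 1W and 7.28 ± 1.54 at 2W did not pass (adjusted p = 0.136 and 0.154), nor did the time course (adjusted p = 0.0522). At 4W Krt1 was at 6.81, 1256 and 252 CPM, at 8W at 145, 12.7 and 182 CPM and at 9W at 33.3, 160.1 and 389 CPM. The libraries of 4W thus spread over more than the range of 8W and 9W. Krt10 was at 922, 297 and 80.3 CPM at 0W, at 195, 27.2 and 60.7 CPM at 1W and at 2647, 626 and 2351 CPM at 2W, and it was not called at any time.

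Sbsn in Lgr5 cells was at 421, 402 and 199.9 CPM at 0W and at 50.6, 124 and 229 CPM at 1W. It was at 133, 88.9 and 137 CPM at 2W and at 96.3, 125 and 86.7 CPM at 4W, below all 0W libraries at both times. At 8W it was at 598, 588 and 672 CPM, above every library of the other times, and at 9W at 316, 245 and 232 CPM, again below all 8W libraries. The time course passed (adjusted p = 0.00826), as did the rise from 4W to 8W (2.59 ± 0.42, adjusted p = 0.00985). Neither the decrease at 4W against 0W (-1.73 ± 0.41, adjusted p = 0.111) nor that from 8W to 9W (-1.23 ± 0.40, adjusted p = 1) passed. Over the time course 1.13% of all genes were called, and in 8W against 4W 0.327%. The time course call held without any single library (adjusted p 0.00325 to 0.0333) and missed with 4 surrogate variables (0.0609). The rise to 8W was lost without 4W replicate a (adjusted p = 0.0559) or 4W replicate c (0.0876).

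Dmkn shared part of this course. It was at 989, 975 and 619 CPM at 0W and at 1045, 1553 and 1815 CPM at 1W, and fell to 546, 644 and 329 CPM by 4W. The decrease from 1W to 4W passed (-1.54 ± 0.33, adjusted p = 0.0254), in a comparison where 3.15% of all genes were called, and was lost without 1W replicate 3 (adjusted p = 0.0621) or 4W replicate c (0.129). At 8W Dmkn was at 1472, 1403 and 1393 CPM, above all 0W and all 4W libraries, with a log2 difference of 1.49 ± 0.33 from 4W that did not pass (adjusted p = 0.0615). Krtdap, the third neighbour, was highest at 1W (931, 663 and 1201 CPM against 292, 167 and 93.7 CPM at 0W), where all libraries were above 0W and the difference of 2.34 ± 0.60 narrowly missed (adjusted p = 0.0575). It was at 300.5, 428 and 114 CPM at 4W and at 443, 203 and 398 CPM at 8W (0.31 ± 0.57, adjusted p = 0.920). Calm4 ranged from 67.5 to 931 CPM over the 18 libraries and was not called.

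In the comparisons of Lgr5 cells with 0W, none of the 9 genes was called at 1W (1.29% of all genes called), 2W (0%), 4W (0.155%), 8W (0%) or 9W (0%). At an unadjusted p under 0.05 the numbers of the 9 were 5, 3, 3, 4 and 1, and the shares of all genes were 18.6%, 8.79%, 10.7%, 5.94% and 6.42%. DESeq2 called 3 of them at 1W (Sbsn, Krtdap, Krt1), 2 at 2W (Sbsn, Krt1), 2 at 4W (Sbsn, Krt1) and none at 8W or 9W, where it called 7.81%, 0.982%, 1.55%, 0.366% and 0.316% of all genes. After the second wound, none was called in 9W against 1W (0.266%) or 9W against 8W (0%), with 2 and 1 of the 9 at an unadjusted p under 0.05 beside 16.8% and 3.83% of all genes. DESeq2 called Krtdap in 9W against 1W (5.32% of all genes called), where it went from 663 to 1201 CPM down to 238 to 332 CPM (edgeR -1.71 ± 0.58, adjusted p = 0.171).

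Genes outside the 9 moved beside Sbsn in Lgr5 cells. Spink5, a serine protease inhibitor of the cornified layers, was at 486, 318 and 130.3 CPM at 0W, at 5.83, 54.9 and 54.5 CPM at 4W and at 641, 582 and 702 CPM at 8W. Its rise from 4W to 8W passed (4.03 ± 0.64, adjusted p = 0.00915), the only call among 13 envelope assembly genes. Krt15, which marks the bulge, was at 16678, 18382 and 13508 CPM at 0W, at 2685, 4505 and 2913 CPM at 4W and at 20135, 17598 and 19854 CPM at 8W (2.51 ± 0.29 from 4W to 8W, adjusted p = 0.00179). The list of the lower follicle and bulge, with Postn left out of its 6 genes, summed to 15267 to 21318 CPM at 0W, 3774 to 6209 CPM at 4W and 20441 to 21994 CPM at 8W, and both this list and Sbsn were thus low at 4W and high at 0W and 8W. The part of bulge cells in the course of Sbsn was not tested. The basal keratin gene Krt14 rose at 1W (1.53 ± 0.29, adjusted p = 0.0197). At that time Krt15 fell (-1.16 ± 0.28, adjusted p = 0.0498), as did periplakin (Ppl), a plaque protein of the envelope (-2.63 ± 0.40, adjusted p = 0.0136). Among 5 tested granular layer genes, 10 suprabasal keratin and desmosome genes and 14 transcription factors of differentiation, no gene was called in any Lgr5 comparison, with edgeR.

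**Figure D4:**
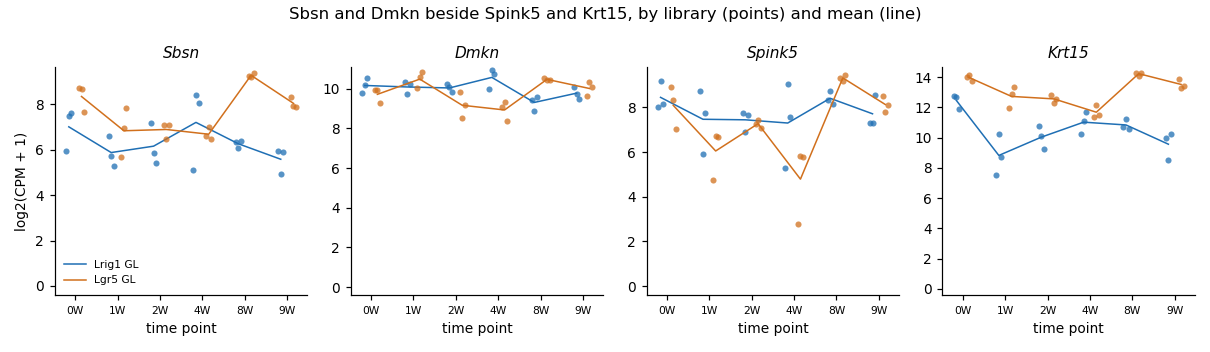
Sbsn, Dmkn, Spink5 and Krt15 as log2(CPM + 1) by library (points) with the mean of 3 (line), Lrig1 in blue and Lgr5 in orange, scaled separately. In Lgr5 libraries Sbsn, Spink5 and Krt15 were low at 4W (86.7 to 125, 5.83 to 54.9 and 2685 to 4505 CPM) and high at 8W (588 to 672, 582 to 702 and 17598 to 20135 CPM).

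From 4W to 8W, Sbsn and Dmkn changed differently in the 2 populations. This comparison was added after the values were seen. Dmkn went from 1032, 1970.2 and 1737 to 691, 475 and 775 CPM in Lrig1 cells and from 546, 644 and 329 to 1472, 1403 and 1393 CPM in Lgr5 cells, so that all 8W libraries lay below all 4W libraries in Lrig1 and above them in Lgr5 cells. The difference of the changes was -2.73 ± 0.45 on the log2 scale in the joint fit (adjusted p = 0.00117). For Sbsn it was -4.03 ± 0.82 (adjusted p = 0.00567), with Lrig1 libraries overlapping between 4W and 8W. Both passed in all 10 other settings of the joint fit and without any of the 36 libraries (adjusted p up to 0.0100 and 0.0182 in the settings, and 0.00781 and 0.0272 without a library, for Dmkn and Sbsn). Surrogate variables were not among these settings, as they were fitted only within each population. There, from 4W to 8W, Dmkn in Lrig1 cells was at -0.54 (edgeR adjusted p = 0.589) and Sbsn in Lgr5 cells at 1.77 (0.119). For Krtdap, the third neighbour, the difference of the changes in the joint fit was -1.65 ± 0.69 (adjusted p = 0.152), for Calm4 -2.60 ± 0.92 (0.0917) and for Krt1 -0.12 ± 1.35 (0.970). Thus 2 of the 9 genes passed where 4.54% of all genes did. Against 0W, the difference between populations was tested at 1W (0.0572% of all genes called), 8W (1.51%) and 9W (0.193%), and none of the 9 passed. The numbers at an unadjusted p under 0.05 were 4, 5 and 1, beside 15.2%, 18.6% and 13.4% of all genes. DESeq2 called Krtdap at 1W and Dmkn at 8W, where it called 3.24% and 5.99% of all genes. The nearest were Dmkn at 8W (-1.57 ± 0.45, adjusted p = 0.0606) and Krtdap at 1W (-2.77 ± 0.69, adjusted p = 0.0697). These differences share the 0W libraries.

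Ordered by their means, the 9 genes were highest at 4W in Lrig1 cells, and Krt1, Krtdap, Dmkn, Calm4 and Lor were lowest at 8W. For Lor and Flg this rested on 4W replicate c, without which Lor was highest at 2W and Flg at 0W, and without 0W replicate 1 Ivl was highest at 0W. Lor was lowest at 1W without 1W replicate 1, and Krtdap at 9W without 8W replicate a or b or 9W replicate 1. The highest mean exceeded the lowest 5.54-fold for Calm4, 4.96-fold for Krt1 (3.09-fold without 4W replicate b), 3.24-fold for Krt10, 2.63-fold for Krtdap and 2.44-fold for Dmkn. Neighbours in these orders mostly overlapped: the exceptions were 9W above 8W for Calm4 and 0W above 9W for Lor. In Lgr5 cells the orders were less alike. Krt1, Krt10 and Calm4 had their highest mean at 2W, Krtdap, Dmkn and Ivl at 1W, Sbsn and Lor at 8W and Flg at 4W. Calm4 was highest at 1W without 1W replicate 2 or 2W replicate a, Dmkn at 8W without 1W replicate 3, and Lor at 9W without 8W replicate a or 9W replicate 2. The highest mean exceeded the lowest 157-fold for Krt1 (72.6-fold without 2W replicate a), 19.9-fold for Krt10 (42.7-fold without 1W replicate 1), 6.03-fold for Sbsn, 5.06-fold for Krtdap and 2.91-fold for Dmkn. The neighbours that did not overlap were 8W above 0W and 9W above 1W for Sbsn and 8W above 9W for Dmkn.

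Krt1 and Krt10 encode partners of 1 filament, and their counts were compared within each library. Like that of any 2 genes, this ratio is free of scaling between libraries, but not of library effects that differ between genes. This measure was chosen after the levels were seen. In Lrig1 cells the ratio of Krt10 to Krt1 counts was 1.38 to 1.82 at 0W, 0.669 to 0.859 at 1W, 0.942 to 1.74 at 2W, 1.08 to 1.96 at 4W, 3.48 to 5.09 at 8W and 1.81 to 2.39 at 9W. The 1W libraries were below, and the 8W libraries above, every library of the other times. In Lgr5 cells the ratio was 8.96 to 65.5 at 0W, where Krt1 was scarce, 0.172 to 0.620 at 1W, 0.505 to 1.39 at 2W, 1.13 to 3.71 at 4W, 1.28 to 10.3 at 8W and 0.870 to 9.53 at 9W. In both populations the 1W libraries lay below the 0W libraries, and in Lrig1 cells the 8W libraries lay above the 4W libraries. On the log2 scale, the 1W minus 0W difference was -1.03 in Lrig1 and -5.59 in Lgr5 cells, and the 8W minus 4W difference in Lrig1 cells was 1.63. Two-sided exact permutation tests on 3 against 3 libraries gave p = 0.1 for each, the smallest value this design allows (adjusted p = 0.164 over 18 comparisons), so none could pass. Leaving out any 1 library moved these differences to -1.12 to -0.92, -6.13 to -4.70 and 1.43 to 1.86.

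**Figure D5:**
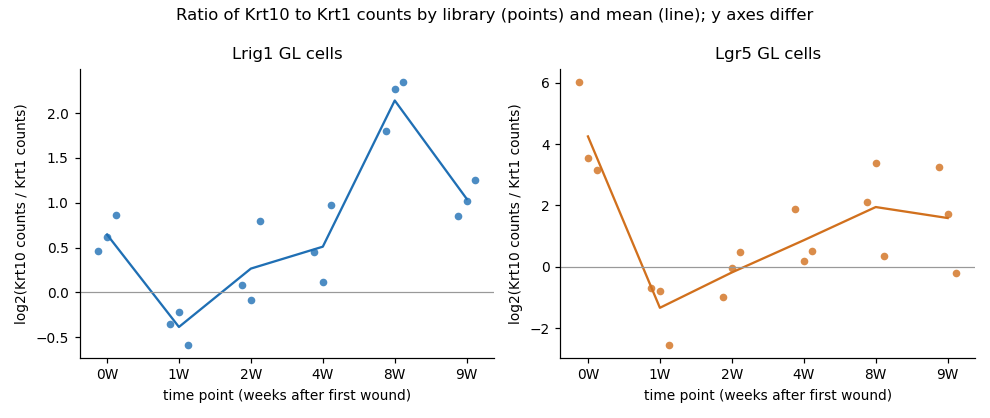
Log2 of the ratio of Krt10 to Krt1 counts within each library (points) and the mean of 3 (line) by time point, for Lrig1 (left) and Lgr5 (right) GL cells; the y axes differ. In Lrig1 cells 1W was lowest (ratio 0.669 to 0.859) and 8W highest (3.48 to 5.09).

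Across the 18 libraries of a population, correlations between the 9 genes differed widely, given here as a description since libraries of 1 group share their time point. In Lrig1 cells Dmkn and Calm4 had r = 0.93 (rho = 0.89), Krt1 and Calm4 r = 0.91 (rho = 0.88) and Krtdap and Dmkn r = 0.90 (rho = 0.89). Krt10 had r = 0.50 (rho = 0.29) to Krt1, r = 0.33 (rho = 0.16) to Calm4 and r = 0.53 (rho = 0.43) to Sbsn. Ivl was as loose, with r from 0.30 (to Lor) to 0.52 (to Krt10). In Lgr5 cells Krt1 and Krt10 had r = 0.65 (rho = 0.61), but other pairs were near or below 0. Examples were Krt10 and Krtdap (r = 0.006), Krt10 and Dmkn (-0.25) and Krt1 and Sbsn (-0.37). The genes outside the 9 closest to the mean z-scored profile of the 9 were Fam25c (r = 0.93), Ly6d (0.88), Gltp (0.87), Aldh3b2 (0.86) and Emc4 (0.86) in Lrig1 cells, among 10491 candidates. In Lgr5 cells they were Ly6d (0.84), Calm5 (0.83), Crlf2 (0.81), Vps53 (0.81) and Blzf1 (0.79), among 11921. Ly6d was in both sets of 5. Among the 9 genes in Lgr5 cells, Sbsn had the lowest r to the mean profile (0.20), and the others ran from 0.38 (Flg) to 0.88 (Calm4). The profile includes each gene itself, which raises these values. The closest genes to Sbsn there, chosen after its values were seen, were Efna3 (r = 0.96), Gsn (0.93) and Zfp652 (0.93). In Lrig1 cells those closest to Sbsn were Psapl1 (0.86), Clic3 (0.85) and Fam25c (0.84). For Krt1 they were Rps15 (0.85), Rab25 (0.85) and Eif3f (0.85) in Lrig1 cells, and Stfa1 (0.89), Stfa3 (0.88) and BC100530 (0.87) in Lgr5 cells.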

How the data were processed

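RNA of sorted tdTomato-positive epidermal cells was sequenced in 36 libraries. Per the submitters' processing notes, reads were trimmed with Trim Galore 0.5.0, aligned with HISAT2 2.2.01 to mm10 (GRCm38) and counted with featureCounts 1.6.12 on GENCODE M20 genes. The authors deposited raw counts per gene, in 1 table for each population. Of the columns, 15 carried a replicate number of the labels and 21 showed only their group, whose libraries are named a, b and c. The 9 genes and all other lists were chosen with earlier results of these data known.

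Tests used edgeR 4.0.16 under R 4.3.3 (filterByExpr with a minimum of 10 counts, TMM, quasi-likelihood F-test, prior count 0.125) over the 18 libraries of a population, and over all 36 for comparisons between populations, with Benjamini-Hochberg adjustment over all genes tested. Comparisons with 0W and the time course had to pass 0.05 after adjustment with a log2 change larger than 1 in size, and the others an adjusted p under 0.05 alone, for 25 comparisons in all. Named genes were all 9 members, a part of the genes of the other lists called in any comparison, and the 5 genes closest to the members' mean profile in each population. The genes closest to Sbsn and to Krt1 were named as well. Not every called gene of the other lists is named. Alternatives were the likelihood ratio test, DESeq2 1.42.0, limma 3.58.1 (voom), other size factors and filters, removal of Gm12415, surrogate variables (sva 3.50.0), a replicate block and leaving out each library. Surrogate variables and the replicate block were fitted within each population only. The code was tested on simulated data. Same-numbered libraries did not deviate together (mean r = 0.004 over 9 pairs in Lrig1 and -0.02 over 3 pairs in Lgr5), so the numbers were not taken as pairs.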

Additional observations from a re-analysis of the deposited data

Results flagged for a closer look

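Between 4W and 8W the change differed between Lrig1 and Lgr5 cells for 2 of the 9 genes, Sbsn (-4.03 on the log2 scale, Lrig1 minus Lgr5, adjusted p = 0.00567) and Dmkn (-2.73, 0.00117), in edgeR's joint fit. In the same comparison, genes of the other lists also passed: Krt15 (-2.75, adjusted p = 0.0190), Krt5 (-1.44, 0.0121), Calml3 (-2.25, 0.0131), Spink5 (-3.55, 0.0346) and Krt80 (-2.62, 0.0247) below zero, and Trp63 (2.11, 0.0126), Maf (2.20, 0.0391), Dsc1 (4.50, 0.0426) and Lrig1 (1.91, 0.0253) above zero. The fitted value of Kprp (-16.81, adjusted p = 0.0202) rests on groups with all libraries at 0 and depends on the prior count, so it gives no size. Between 0W and 8W the change differed for Itgb1 (2.27, adjusted p = 0.0201), Maf (3.71, 0.00537) and Krt36 (10.86, 0.0402), the last with libraries at 0 and a spread from 0.536 to 806 CPM among Lrig1 libraries at 8W. All of these genes were looked up in a comparison between populations that, for 4W to 8W, was added after the values were seen. From 1W to 4W, Krtdap was higher in all Lrig1 libraries and lower in all Lgr5 libraries, with fold changes 2.72 apart on the log2 scale. That difference was not tested.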

How the results depend on the processing

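The number of called genes among the 9 was recomputed for the comparisons under each alternative that covered them, which gave 794 numbers over all comparisons. Of these, 727 stayed within 1.5 times, 14 fell and 53 rose. Many of the 727 were 0 both as reported and in the alternative, so they say little on stability. Of 472 recomputed fold changes of the called genes, none reversed and 41 were no longer past the threshold. With the likelihood ratio test the numbers were 1 (Lrig1 8W against 0W), 3 (Lrig1 time course), 3, 2 and 2 (Lgr5 1W, 2W and 4W against 0W), 2 (Lgr5 4W against 1W), 2 (Lgr5 8W against 4W), 5 (Lgr5 time course), and 1, 1 and 4 for the differences of change to 1W, to 8W and from 4W to 8W. With DESeq2 they were 1, 1 (Lrig1 4W against 1W) and 3 in Lrig1, 3, 2, 2, 1 (9W against 1W), 2, 3 and 4 in Lgr5 in the same order, and 1 and 1 for the differences of change to 1W and 8W. With limma-voom, Lgr5 4W against 0W gave 1, Lgr5 8W against 4W gave 2 and the difference of change to 8W gave 1. DESeq2 size factors gave 2 in the Lgr5 time course. A minimum of 30 counts gave 1 in Lrig1 8W against 0W, 1 in the Lrig1 time course, 1 in Lgr5 1W against 0W, 2 in the Lgr5 time course and 1 in the difference of change to 8W. Added after seeing the data, removal of a GC trend gave 1 in Lrig1 8W against 4W, 1 in Lgr5 1W against 0W and 2 in the Lgr5 time course, and removal of mitochondrial genes gave 1 in Lrig1 8W against 0W. With surrogate variables, 0 were called in Lrig1 8W against 4W and in Lgr5 4W against 1W, 8W against 4W and the time course. Leaving out 1 library gave 0 to 5 in Lrig1 8W against 4W, 0 to 1 in Lrig1 8W against 0W, the Lrig1 time course, Lgr5 1W and 4W against 0W, Lgr5 4W against 1W and the difference of change to 1W, 0 to 2 in Lgr5 8W against 4W, 1 to 2 in the Lgr5 time course, 3 to 4 between populations at 0W and 2 to 3 for the difference of change from 4W to 8W. The cause was not tested.

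All genes called ranged over the other settings from 0 to 1634 in Lrig1 8W against 4W (532 as reported), 0 to 1996 in Lgr5 4W against 1W (567) and 176 to 1935 for the difference of change from 4W to 8W (634). With the replicate number as a block, 0 of the 9 genes were called in Lrig1 1W against 0W, 9W against 0W and 9W against 1W and in Lgr5 9W against 1W, as without it. There were 3 libraries per group, with a biological coefficient of variation of 0.698 in Lrig1 and 0.662 in Lgr5.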
